A study of Homo sapiens with 8 samples.

Results

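Transcript levels of 10 genes of the YAP and TEAD system were followed in H9, a human embryonic stem cell line in wide use. The genes were taken by name from a table of 45961 gene numbers: the target genes CCN1 (older symbol CYR61), CCN2 (CTGF), ANKRD1, NPPB, AXL, AMOTL1 and AMOTL2, the coactivator genes YAP1 and WWTR1, and the transcription factor gene TEAD1. All 10 were found, and all 10 were among the 12449 genes tested, which averaged 1 FPKM or more and had a name that matched their gene number. ANKRD1 and NPPB averaged under 1 FPKM in D3_Control, so they passed that filter through co-culture libraries alone and had to differ. FPKM counts fragments for each kilobase of a transcript and scales them to all fragments mapped in that library.

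The 8 polyA libraries fall into 4 groups of 2. D1_Co holds replicates 2 and 3, D2_Co replicates 1 and 3, and D3_Co replicates 1 and 2, and the titles are read here as H9 cells after 1, 2 and 3 days of co-culture. D3_Control, replicates 2 and 3, is read as H9 cells in separate culture on day 3. The series asks about cell competition in chimeras between species. No genetic change and no age is given for any group. All groups are described by 1 text, in which primed human pluripotent cells grew on Matrigel in mTeSR1, or on inactivated mouse embryonic fibroblasts in a medium with FGF2 and the tankyrase inhibitor IWR1. Which of these applied to a library, what the partner cells were and how the human cells were set apart from them the labels leave unsaid. No separate culture of day 1 or 2 was analysed here, so day and culture cannot be told apart where D1_Co or D2_Co is set against D3_Control. Whether the 2 libraries of a group stem from different cultures is not stated, and p-values then reflect no more than the spread between these samples, which may be technical.

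YAP1 and its relative TAZ, the product of WWTR1, are transcriptional coactivators. Of the Hippo kinases, MST acts on LATS, and LATS phosphorylates YAP1 and TAZ and keeps them in the cytoplasm when cells are crowded. Spreading and tension on the actin cytoskeleton instead let YAP1 and TAZ enter the nucleus. There they bind TEAD transcription factors and raise the transcription of genes such as CCN1, CCN2 and ANKRD1. In pluripotent cells the pathway is known for its part in survival and in the choice between embryonic and extraembryonic fates, and in mouse embryos differences in YAP activity are known to mark winners and losers of cell competition.

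Promoter sequence was looked up for the 10 genes, and 7 had at least 1 window in RefSeq (GRCh38.p14): CCN2, ANKRD1, AXL, AMOTL1, AMOTL2, YAP1 and WWTR1. CCN1, NPPB and TEAD1 had none. The 250 bases before each start were searched on both strands for GGAATG, the core letters that TEAD proteins bind, which read CATTCC on the other strand. They were also searched for the CArG box of the factor SRF and for TGANTCA, where N is any base. TGANTCA is a loose pattern that includes AP-1 sites, so a match to it need not be one. GGAATG was found in 5 of the 10 windows, TGANTCA in 1 and the CArG box in 0, and no matches overlapped. Of all 35116 windows of this length in the table, 11.9% held GGAATG, 0.940% held it at least 2 times and 0.0826% at least 3 times, 6.57% held TGANTCA and 1.16% a CArG box. CCN2 held GGAATG 3 times, with first bases 169, 104 and 95 bases before the start. ANKRD1 held it 2 times, at 220 and 128, and held the 1 TGANTCA, at 195, where the bases read TGATTCA. AMOTL2 and AXL each held 1 match on the other strand in the window of their other start, at 69 and at 212, and YAP1 held 1 at 162. Shown are the windows of the 4 target genes with a match, 5′ to 3′ along the gene, with the matches to GGAATG or CATTCC in capitals. They lie at chr6:131951373-131951622 (minus strand) for CCN2, chr10:90921088-90921337 (minus) for ANKRD1, chr3:134374448-134374697 (minus) for AMOTL2 and chr19:41226505-41226754 (plus) for AXL.
CCN2: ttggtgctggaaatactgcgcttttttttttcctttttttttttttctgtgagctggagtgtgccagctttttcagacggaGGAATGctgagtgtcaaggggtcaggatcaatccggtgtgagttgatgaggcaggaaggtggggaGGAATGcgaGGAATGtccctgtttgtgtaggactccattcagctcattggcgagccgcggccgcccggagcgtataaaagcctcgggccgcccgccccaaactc
ANKRD1: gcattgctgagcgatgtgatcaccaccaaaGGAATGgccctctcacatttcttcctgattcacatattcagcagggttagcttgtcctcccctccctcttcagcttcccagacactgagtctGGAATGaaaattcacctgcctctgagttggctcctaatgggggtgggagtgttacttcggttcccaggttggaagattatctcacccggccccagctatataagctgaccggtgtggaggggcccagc
AMOTL2: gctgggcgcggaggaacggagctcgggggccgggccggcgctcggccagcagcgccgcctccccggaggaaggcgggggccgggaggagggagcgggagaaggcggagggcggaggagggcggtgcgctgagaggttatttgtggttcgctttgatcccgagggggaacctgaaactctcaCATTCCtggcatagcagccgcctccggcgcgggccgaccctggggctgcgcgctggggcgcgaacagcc
AXL: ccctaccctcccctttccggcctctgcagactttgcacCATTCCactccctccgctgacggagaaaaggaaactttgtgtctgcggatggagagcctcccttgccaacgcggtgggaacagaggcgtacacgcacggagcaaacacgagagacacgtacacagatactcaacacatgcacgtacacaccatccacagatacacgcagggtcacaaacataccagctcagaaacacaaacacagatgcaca
A match describes letters only, and nothing was measured at these sequences.

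Part of the deposited values stood on the rows of other genes and was returned to its gene by a search. The search allows only orders that the table's sorting, inferred from the table itself, could have produced. Among the 10 genes, 13 of 70 values moved in the 7 libraries searched, in CCN1, CCN2, AXL and AMOTL2. On the rows as deposited CCN1 read 3.39 and 2.04 FPKM in D3_Control, and the values returned to it are 104.9 and 96.5 FPKM. CCN2 was listed at 0 in both D3_Control libraries and in D1_Co replicate 3, where 178, 154 and 163 FPKM were returned. AMOTL2 read 1.09 FPKM in D1_Co replicate 3, where 34.8 FPKM was returned. AXL moved in all 7 libraries searched. For 53 of the 70 values the sorting allows 1 value only, and for 17 it allows others, from which the search took the order closest to D1_Co replicate 2. These others are given beside the genes they touch. In 0 of the 70 values did the choice change when the search was drawn to the D3_Control mean instead. That mean was taken from values the first search had placed, so the D3_Control values were drawn partly to themselves. For those values the second search is no independent check.

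**Figure D1:**
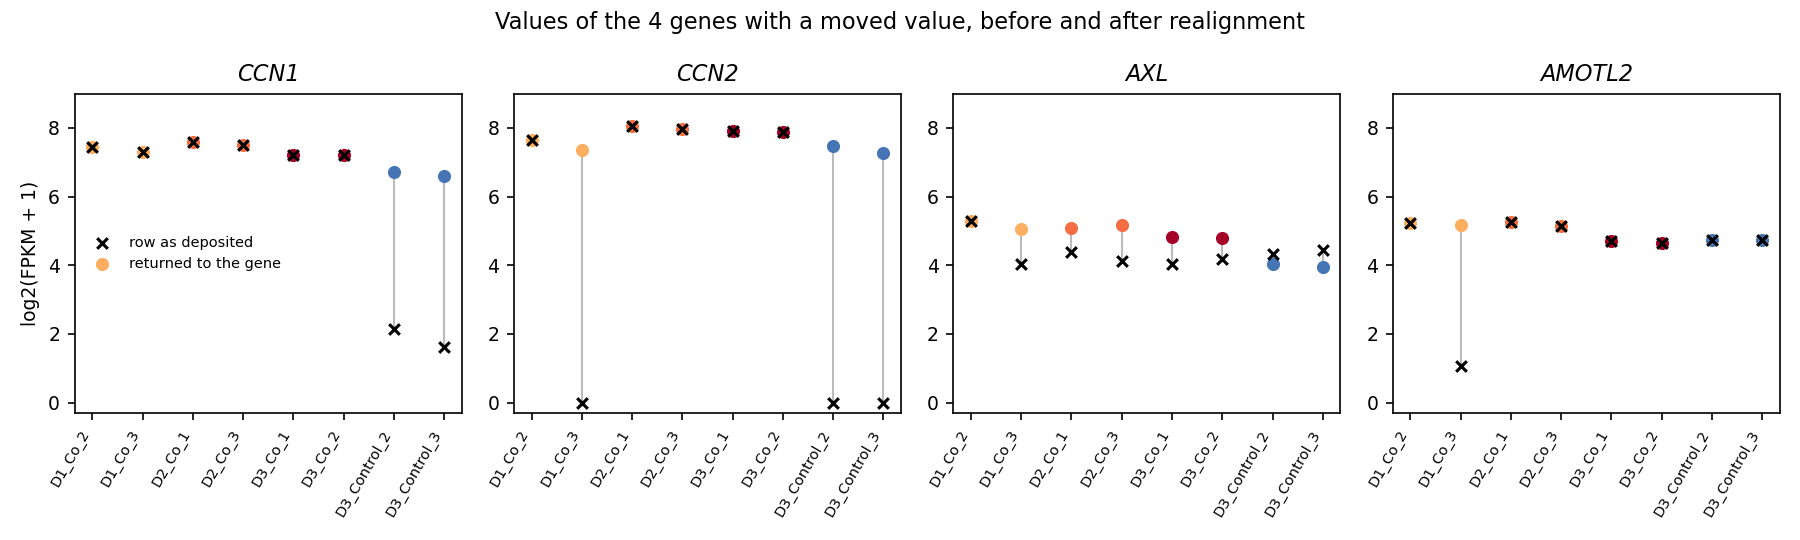
Levels of CCN1, CCN2, AXL and AMOTL2, the genes with a moved value, as log2(FPKM + 1) on a linear axis in each of the 8 libraries, with crosses for the row as deposited and coloured points for the value returned to the gene. CCN2 was listed at 0 in 3 libraries before its values were returned, and CCN1 stood at 3.39 and 2.04 FPKM in D3_Control.

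CCN1 and CCN2 encode secreted proteins of the matrix that bind integrins, and they had the highest FPKM of the 10 genes in every library. CCN1 (chr1:85580761-85583962, plus strand, GENCODE on GRCh38) had 173 and 155 FPKM in D1_Co, 191 and 178 FPKM in D2_Co, 146 and 148 FPKM in D3_Co, and 104.9 and 96.5 FPKM in D3_Control. Both D3_Control libraries lay below all 6 co-culture libraries, and D2_Co was highest. In the order D2_Co, D1_Co, D3_Co, D3_Control, the groups did not overlap, but the neighbours D2_Co and D1_Co missed the adjusted threshold of 0.05 (limma, adjusted p = 0.179), as did D3_Co and D1_Co (adjusted p = 0.146), while D3_Co against D3_Control passed it. For D3_Control the sorting also allows the deposited 3.39 and 2.04 FPKM, with which the groups would lie further apart.

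CCN2 (chr6:131948176-131951373, minus strand) had 201 and 163 FPKM in D1_Co, 266 and 251 FPKM in D2_Co, 239.5 and 234 FPKM in D3_Co, and 178 and 154 FPKM in D3_Control. Here D1_Co overlapped D3_Control, and the 4 libraries of days 2 and 3 lay above both. Neighbours D3_Co and D2_Co missed the adjusted threshold (adjusted p = 0.452), as did D1_Co and D3_Control (adjusted p = 0.436). CCN2 stood at 1.16 and 1.05 times CCN1 in D1_Co, 1.39 and 1.41 times in D2_Co, 1.64 and 1.58 times in D3_Co and 1.70 and 1.59 times in D3_Control, on the FPKM scale. Every CCN2 value is the only one the sorting allows. CCN1 and CCN2 were the members of the CCN family that these cells expressed: CCN3, CCN4, CCN5 and CCN6 summed to between 0.0110 and 0.1996 FPKM per library.

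ANKRD1 and NPPB, both known from heart muscle, had low levels that changed the most. ANKRD1 encodes a nuclear and sarcomeric ankyrin repeat protein, and NPPB the precursor of B-type natriuretic peptide. ANKRD1 (chr10:90912096-90921276, minus strand) had 4.80 and 3.82 FPKM in D1_Co, 8.85 and 9.36 FPKM in D2_Co, 1.72 and 2.43 FPKM in D3_Co, and 0.216 and 0.183 FPKM in D3_Control. Its 4 groups did not overlap, and in the order D2_Co, D1_Co, D3_Co, D3_Control each neighbouring pair differed in the test. The sorting also allows 2.04 FPKM in D1_Co replicate 3, 2.04 FPKM in D2_Co replicate 3 and 1.50 FPKM in D3_Co replicate 2. With those values the co-culture days overlap, while each co-culture day stays above D3_Control.

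NPPB (chr1:11857464-11858931, minus strand) had 6.96 and 6.01 FPKM in D1_Co, 16.0 and 14.3 FPKM in D2_Co, 3.47 and 5.19 FPKM in D3_Co, and 0.802 and 0.660 FPKM in D3_Control. The groups did not overlap and stood in the same order as for ANKRD1. Neighbours D3_Co and D1_Co just missed the adjusted threshold (adjusted p = 0.0519), with a log2 difference of -0.51 and a 95% interval of -0.87 to -0.14. Every NPPB value stayed in place and is the only one the sorting allows.

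AXL encodes a receptor tyrosine kinase whose ligand is GAS6. It (chr19:41219203-41261766, plus strand) had 38.1 and 32.0 FPKM in D1_Co, 33.1 and 35.2 FPKM in D2_Co, 27.5 and 26.7 FPKM in D3_Co, and 15.5 and 14.5 FPKM in D3_Control. Days 1 and 2 overlapped, D3_Co lay below them and D3_Control below all co-culture libraries. D2_Co against D1_Co was not called (adjusted p = 0.853). The AXL values are the least settled of the 10 genes. The sorting also allows 5.63 or 6.64 FPKM in D2_Co replicate 1, 46.3 FPKM in D2_Co replicate 3, 5.26, 5.65 or 44.0 FPKM in D3_Co replicate 1, and 47.5 FPKM in D3_Control replicate 3, with which every pair of groups overlaps.

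AMOTL1 and AMOTL2 encode angiomotin-like scaffold proteins, which bind YAP and keep it out of the nucleus, and which are YAP targets themselves. AMOTL1 (chr11:94706431-94876753, plus strand) had 29.7 and 30.4 FPKM in D1_Co, 24.9 and 27.0 FPKM in D2_Co, 22.2 and 22.2 FPKM in D3_Co, and 24.6 and 24.2 FPKM in D3_Control. Both D1_Co libraries were the highest, and both D3_Co libraries lay below D3_Control. In the order D1_Co, D2_Co, D3_Control, D3_Co no neighbouring pair passed the adjusted threshold (adjusted p = 0.0659 for D2_Co against D1_Co, 0.313 for D2_Co against D3_Control and 0.120 for D3_Co against D3_Control), although no libraries of these pairs overlapped. AMOTL2 (chr3:134355874-134375479, minus strand) had 36.2 and 34.8 FPKM in D1_Co, 37.1 and 34.0 FPKM in D2_Co, 25.3 and 24.1 FPKM in D3_Co, and 25.8 and 25.7 FPKM in D3_Control. D2_Co and D1_Co overlapped (difference -0.0002 on the log2 scale, 95% interval -0.14 to 0.14), and both lay above D3_Co and D3_Control, between which no difference was called (adjusted p = 0.514). The sorting allows no other value for AMOTL1 or AMOTL2.

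YAP1 (chr11:102110461-102233423, plus strand) had 32.9 and 34.0 FPKM in D1_Co, 34.6 and 34.2 FPKM in D2_Co, 30.3 and 31.7 FPKM in D3_Co, and 35.2 and 33.1 FPKM in D3_Control. TEAD1 (chr11:12674591-12944483, plus strand) had 11.2 and 11.0 FPKM in D1_Co, 10.9 and 11.1 FPKM in D2_Co, 11.3 and 11.5 FPKM in D3_Co, and 10.1 and 10.5 FPKM in D3_Control. Neither gene passed the adjusted threshold in any comparison. Both D3_Co libraries of YAP1 lay below the others, with a log2 difference of -0.15 against D2_Co (95% interval -0.27 to -0.02, adjusted p = 0.103). WWTR1 (chr3:149517235-149736714, minus strand) had 10.7 and 11.8 FPKM in D1_Co, 11.1 and 11.2 FPKM in D2_Co, 11.2 and 10.5 FPKM in D3_Co, and 7.76 and 7.35 FPKM in D3_Control. The 3 days of co-culture overlapped, and both D3_Control libraries lay below them. The FPKM of WWTR1 was 0.324 and 0.348 times that of YAP1 in D1_Co, 0.321 and 0.327 in D2_Co, 0.368 and 0.331 in D3_Co, and 0.221 and 0.222 in D3_Control. This ratio was higher in all 6 co-culture libraries than in D3_Control, and its difference was not tested.

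For YAP1 the sorting also allows 0.0250 or 44.9 FPKM in D2_Co replicate 1, 41.4 FPKM in D2_Co replicate 3, and 0.0627 and 0.0353 FPKM in D3_Control replicates 2 and 3. For WWTR1 it allows 2.62 FPKM in D2_Co replicate 3 and 3.30 and 2.81 FPKM in D3_Control replicates 2 and 3, and with these D3_Co and D1_Co stay above D3_Control while D2_Co can overlap it. For TEAD1 it allows 97.4 FPKM in D3_Control replicate 3. Exons of AMOTL1, AXL, CCN2, WWTR1 and YAP1 overlap a gene of the opposite strand in GENCODE, and those of AMOTL2 a pseudogene of its own strand, RPL39P5. The sources used here do not say whether the authors' counting used strand, so reads of such pairs cannot be told apart and these 6 values are uncertain to that extent. In bulk RNA, fewer cells of a type and less RNA per cell cannot be told apart.

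**Figure D2:**
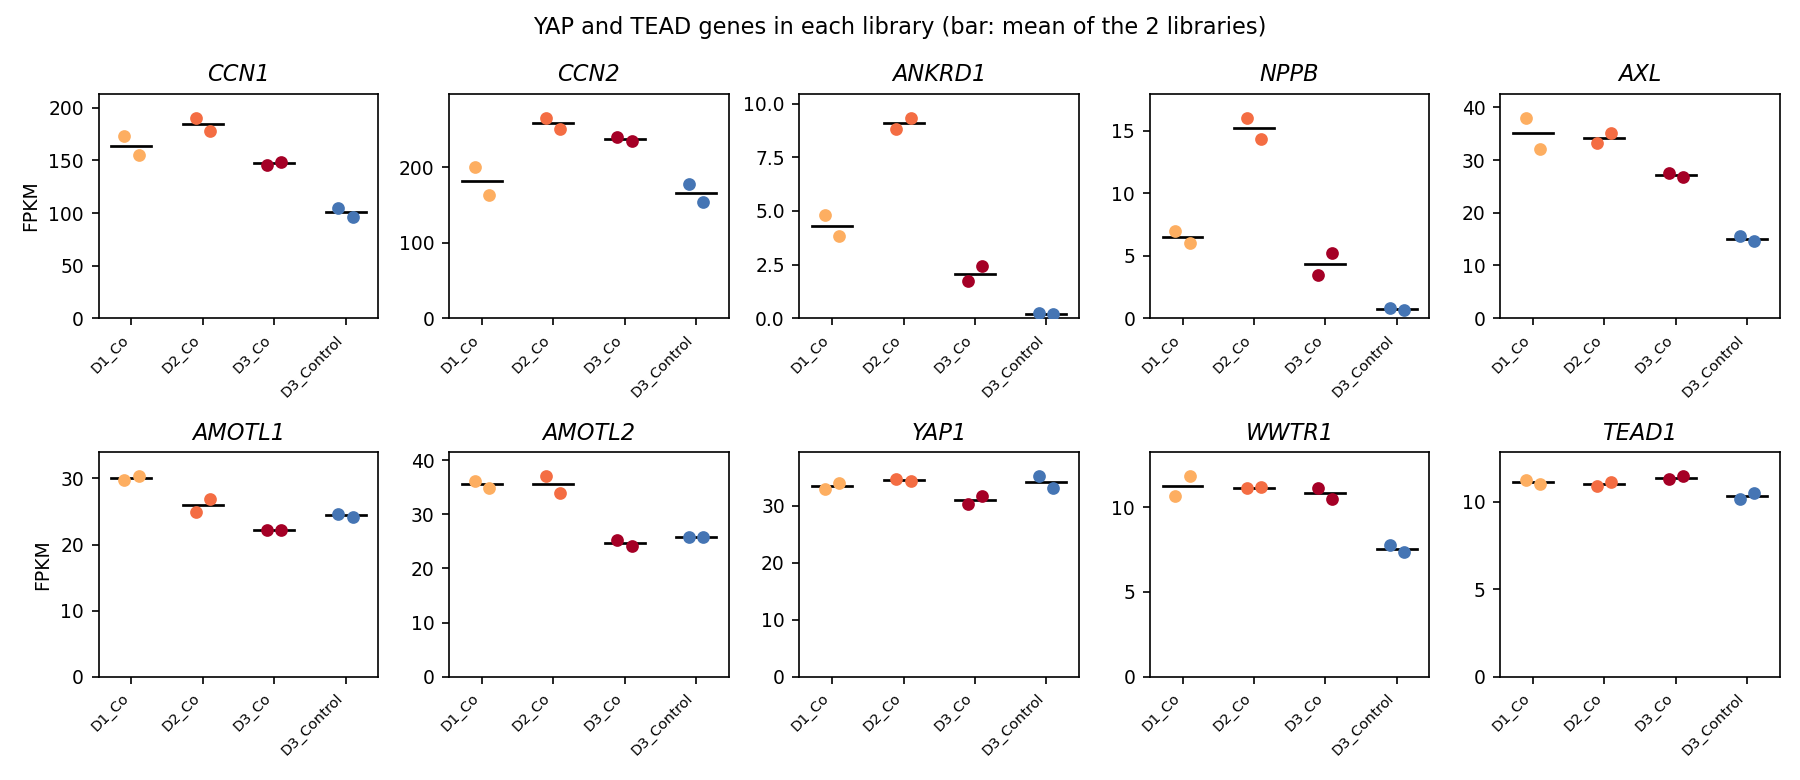
FPKM of each of the 10 genes on a linear axis that starts at 0, with 1 point per library and a bar at the mean of the 2 libraries of a group. ANKRD1 and NPPB peak in D2_Co at 9.10 and 15.2 FPKM on average, and the YAP1 libraries lie between 30.3 and 35.2 FPKM.

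D3_Co against D3_Control is the comparison matched by day, and it asks what differs between shared and separate culture. Of the 7 target genes, CCN1, CCN2, ANKRD1, NPPB and AXL were higher in co-culture, and the 2 angiomotin-like genes were not called. Of the coactivators, WWTR1 was higher and YAP1 was not called. In all, 6 of 10 genes were higher and 0 were lower by limma with Benjamini-Hochberg adjustment over all tested genes and a threshold of 0.05, where 13.5% of all tested genes were higher and 10.8% lower (24.4% in either direction). At an unadjusted p under 0.05 the count in either direction was 8 of 10, and the genes this added, AMOTL1 and YAP1, were lower in D3_Co. The share of all tested genes at that threshold was not counted. Without ANKRD1 and NPPB, which had to differ, 4 of 8 genes were higher and 0 lower. The median log2 difference of the 10 genes was 0.49, beside 0.002 over all tested genes. Since the genes were chosen for their place in the pathway with earlier results of these data known, this count is a description.

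The largest differences were those of the 2 genes with the lowest levels. NPPB averaged 4.33 ± 1.22 FPKM in D3_Co and 0.731 ± 0.101 FPKM in D3_Control (SD, n = 2 each here and below), a ratio of 5.92 and a log2 difference of 1.60 (SE 0.16, adjusted p = 0.00106). ANKRD1 averaged 2.07 ± 0.504 FPKM in D3_Co and 0.199 ± 0.0235 FPKM in D3_Control, a ratio of 10.4 and a log2 difference of 1.35 (SE 0.14, adjusted p = 0.00121). Adding 1 FPKM before the log2 shrinks the difference of genes this low, so the ratio of ANKRD1 exceeds that of NPPB while its log2 difference does not. AXL averaged 27.1 ± 0.515 FPKM in D3_Co and 15.0 ± 0.703 FPKM in D3_Control, a log2 difference of 0.81 (SE 0.08, adjusted p = 0.00132). CCN1 averaged 147 ± 1.53 FPKM in D3_Co and 101 ± 5.93 FPKM in D3_Control, a log2 difference of 0.54 (SE 0.07, adjusted p = 0.00254).

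CCN2 and WWTR1 differed by about as much as CCN1. CCN2 averaged 237 ± 3.79 FPKM in D3_Co and 166 ± 17.3 FPKM in D3_Control, a log2 difference of 0.51 (SE 0.11, adjusted p = 0.0142). WWTR1 averaged 10.8 ± 0.467 FPKM in D3_Co and 7.55 ± 0.291 FPKM in D3_Control, a log2 difference of 0.47 (SE 0.07, adjusted p = 0.00460). The 4 genes not called had differences of 0.13 for TEAD1 (95% interval -0.002 to 0.26), -0.06 for AMOTL2 (-0.19 to 0.08), -0.13 for AMOTL1 (-0.26 to -0.004) and -0.13 for YAP1 (-0.26 to -0.01). The call of CCN2 ended without D3_Co replicate 1 (adjusted p = 0.0643), D3_Co replicate 2 (0.0571) or D3_Control replicate 3 (0.0797), and over its alternatives the adjusted p lay between 0.00791 and 0.0993. The other 5 calls held without each library in turn.

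D2_Co against D3_Control showed the same 2 low genes much higher still, although day and culture are joined in it and its control libraries are those of the day 3 comparison. In D2_Co 7 of 10 genes were higher and 0 lower, where 12.4% of all tested genes were higher and 12.6% lower (25.0% in either direction). Over all tested genes the split of 1544 higher and 1573 lower became 1674 and 1121 under median-of-ratios scaling, where the 10 genes again gave 7 and 0. Without ANKRD1 and NPPB the count was 5 of 8. ANKRD1 averaged 9.10 ± 0.365 FPKM in D2_Co and 0.199 ± 0.0235 FPKM in D3_Control, a ratio of 45.7 and a log2 difference of 3.07 (SE 0.14, adjusted p = 4.32e-05). NPPB averaged 15.2 ± 1.23 FPKM in D2_Co and 0.731 ± 0.101 FPKM in D3_Control, a ratio of 20.8 and a log2 difference of 3.22 (SE 0.16, adjusted p = 5.14e-05). The others called were AXL at 1.13, CCN1 at 0.87, CCN2 at 0.64, WWTR1 at 0.51 and AMOTL2 at 0.45, with adjusted p from 0.000222 for AXL to 0.00625 for CCN2. AMOTL1 (0.08, adjusted p = 0.313), TEAD1 (0.09, adjusted p = 0.294) and YAP1 (0.01, adjusted p = 0.878) were not called.

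On day 1 most targets already lay above D3_Control, with CCN2 the exception among the secreted pair. In D1_Co 7 of 10 genes were higher and 0 lower, where 10.5% of all tested genes were higher and 12.2% lower (22.8% in either direction). Over all tested genes the split of 1311 higher and 1524 lower became 1530 and 1165 under median-of-ratios scaling, where the 10 genes again gave 7 and 0. Leaving aside ANKRD1 and NPPB, it was 5 of 8. ANKRD1 averaged 4.31 ± 0.695 FPKM in D1_Co and 0.199 ± 0.0235 FPKM in D3_Control, a log2 difference of 2.14 (SE 0.14, adjusted p = 0.000138). NPPB had a log2 difference of 2.11, AXL of 1.16, CCN1 of 0.70, WWTR1 of 0.52, AMOTL2 of 0.45 and AMOTL1 of 0.29, with adjusted p from 0.000218 for AXL to 0.0101 for AMOTL1. CCN2 averaged 182 ± 26.6 FPKM in D1_Co and 166 ± 17.3 FPKM in D3_Control, a difference of 0.13 with a 95% interval of -0.12 to 0.38 (adjusted p = 0.436). The call of AMOTL1 ended without D3_Control replicate 3 (adjusted p = 0.0638).

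**Figure D3:**
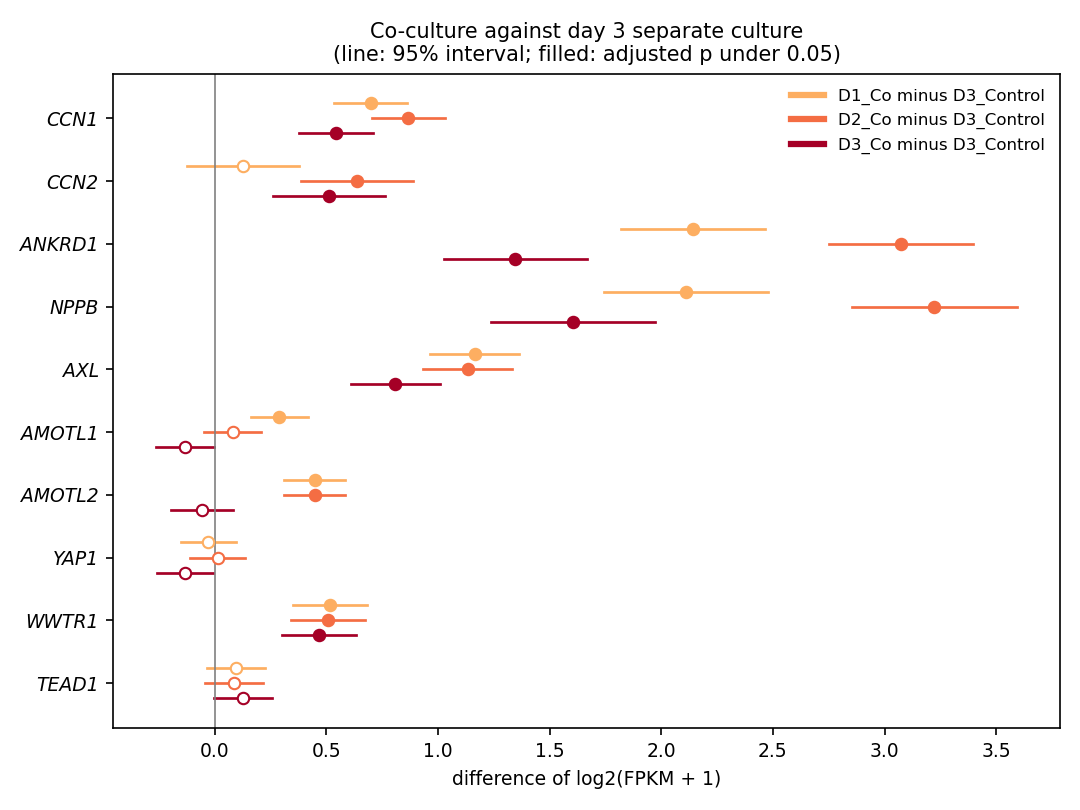
Differences of log2(FPKM + 1) between each day of co-culture and D3_Control for the 10 genes, with 95% intervals from limma and filled points where the adjusted p is under 0.05. The 3 comparisons share the D3_Control libraries, and ANKRD1 and NPPB lie farthest to the right, at 3.07 and 3.22 on day 2.

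Between days 1 and 2 of co-culture the levels of CCN2, ANKRD1 and NPPB rose. NPPB averaged 15.2 ± 1.23 FPKM in D2_Co and 6.49 ± 0.677 FPKM in D1_Co, a log2 difference of 1.11 (SE 0.16, adjusted p = 0.0159). ANKRD1 averaged 9.10 ± 0.365 FPKM in D2_Co and 4.31 ± 0.695 FPKM in D1_Co, a log2 difference of 0.93 (SE 0.14, adjusted p = 0.0181). CCN2 averaged 258 ± 10.6 FPKM in D2_Co and 182 ± 26.6 FPKM in D1_Co, a log2 difference of 0.51 (SE 0.11, adjusted p = 0.0379). In all 3 of 10 genes rose and 0 fell, where 4.23% of all tested genes rose and 2.87% fell (7.09% in either direction). At an unadjusted p under 0.05 the count in either direction was 5 of 10, with AMOTL1, which was lower, and CCN1 added. AMOTL1 had a difference of -0.21 (adjusted p = 0.0659) and CCN1 of 0.17 (adjusted p = 0.179). These calls rest on few libraries. All 3 ended without D1_Co replicate 3, D2_Co replicate 1 or D2_Co replicate 3, where calls over all tested genes also became far fewer. With each library left out in turn the log2 difference lay between 1.02 and 1.20 for NPPB, 0.80 and 1.07 for ANKRD1 and 0.36 and 0.66 for CCN2. The call of NPPB also ended without D1_Co replicate 2, and that of CCN2 without any 1 of the D3_Co or D3_Control libraries.

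Between days 2 and 3 the targets other than CCN2 fell, and CCN2 did not pass the test. Of the 10 genes 6 fell and 0 rose, where 7.21% of all tested genes fell and 8.72% rose (15.9% in either direction), and over all tested genes the split of 1086 higher and 898 lower became 818 and 1080 under median-of-ratios scaling. ANKRD1 averaged 2.07 ± 0.504 FPKM in D3_Co and 9.10 ± 0.365 FPKM in D2_Co, a log2 difference of -1.73 (SE 0.14, adjusted p = 0.00230). NPPB averaged 4.33 ± 1.22 FPKM in D3_Co and 15.2 ± 1.23 FPKM in D2_Co, a log2 difference of -1.62 (SE 0.16, adjusted p = 0.00304). AMOTL2 averaged 24.7 ± 0.851 FPKM in D3_Co and 35.5 ± 2.17 FPKM in D2_Co, a log2 difference of -0.50 (SE 0.06, adjusted p = 0.00474). Smaller falls were called for CCN1 (-0.32, adjusted p = 0.0265), AXL (-0.32, adjusted p = 0.0443) and AMOTL1 (-0.21, adjusted p = 0.0404). CCN2 had a difference of -0.12 with a 95% interval of -0.37 to 0.13 (adjusted p = 0.452). The call of CCN1 ended without any 1 of the D2_Co or D3_Co libraries, and that of AXL without any 1 of these or of the D3_Control libraries. That of AMOTL1 ended without any 1 library of the 4 groups, while ANKRD1, NPPB and AMOTL2 were called in each of these fits. Calls over all tested genes also became fewer in each of them.

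Over the whole course, D3_Co against D1_Co, 1 of 10 genes was higher and 4 were lower, where 16.1% of all tested genes were higher and 10.5% lower (26.6% in either direction). CCN2 rose by 0.39 (SE 0.11, adjusted p = 0.0357), while ANKRD1 fell by 0.79 (SE 0.14, adjusted p = 0.00745). AMOTL2 fell by 0.50 (SE 0.06, adjusted p = 0.00212), AMOTL1 fell by 0.42 (SE 0.05, adjusted p = 0.00291) and AXL fell by 0.35 (SE 0.08, adjusted p = 0.0227), all on the log2 scale. NPPB had a difference of -0.51 (adjusted p = 0.0519). Without D3_Co replicate 1 the count was 3, and with median-of-ratios scaling 0 were higher and 5 lower. The call of CCN2 ended without D1_Co replicate 3 or any 1 of the D2_Co and D3_Co libraries, and that of AXL without D1_Co replicate 2, D3_Co replicate 1 or D3_Co replicate 2.

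**Figure D4:**
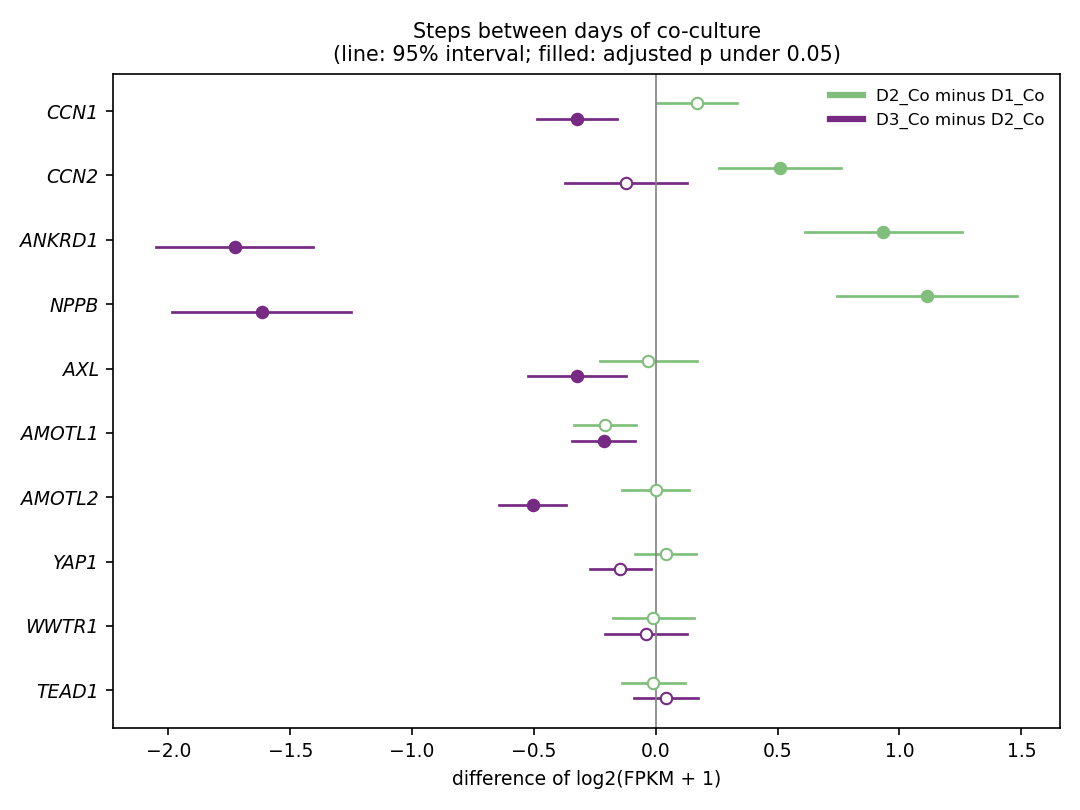
Differences of log2(FPKM + 1) from day 1 to day 2 and from day 2 to day 3 of co-culture for the 10 genes, with 95% intervals from limma and filled points where the adjusted p is under 0.05. ANKRD1 and NPPB lie at 0.93 and 1.11 in the earlier step and at -1.73 and -1.62 in the later one.

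The rest of the pathway was read from lists of known genes, here for D3_Co against D3_Control. Of 13 tested genes of a published YAP and TAZ signature (17 genes besides the 10), 6 were higher and 0 lower, with a median difference of 0.26. Of all tested genes 13.5% were higher and 10.8% lower. GADD45A, a growth arrest gene, averaged 21.8 ± 0.396 FPKM in D3_Co and 9.72 ± 0.493 FPKM in D3_Control (log2 difference 1.09, SE 0.06, adjusted p = 0.000168). NUAK2, a kinase of the AMPK family, averaged 19.6 ± 0.845 FPKM in D3_Co and 8.84 ± 0.399 FPKM in D3_Control (1.07, SE 0.07, adjusted p = 0.000282). MYOF, a membrane repair protein, averaged 10.6 ± 0.0719 FPKM in D3_Co and 5.06 ± 0.269 FPKM in D3_Control (0.93, SE 0.12, adjusted p = 0.00277). The other 3 were F3, the tissue factor of coagulation, DOCK5 and FJX1, and the count fell to 4 without any 1 of the D3_Co or D3_Control libraries. The feedback kinase LATS2 had a difference of 0.07 (adjusted p = 0.512) and IGFBP3, which binds insulin-like growth factors, of 0.15 (adjusted p = 0.248).

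On day 2 the signature held 8 higher and 0 lower genes of 13 against D3_Control, with a median of 0.36, beside 12.4% of all tested genes higher and 12.6% lower. IGFBP3 was among them, at 7.64 ± 0.621 FPKM in D2_Co and 2.75 ± 0.259 FPKM in D3_Control (log2 difference 1.20, SE 0.09, adjusted p = 0.000199). Against D2_Co it was lower in D3_Co, at 3.16 ± 0.0399 FPKM (log2 difference -1.05, adjusted p = 0.00230). Its levels stood highest on day 2, as did those of ANKRD1 and NPPB. For D2_Co against D3_Control the signature held 7 higher and 1 lower genes with quantile normalization, and 9 and 0 with median-of-ratios scaling. Fewer genes were higher when any 1 library but D2_Co replicate 1 was left out.

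Of 19 tested Hippo kinases and upstream regulators, 2 were higher in D3_Co than in D3_Control and 0 lower, with a median of 0.05, beside 13.5% of all tested genes higher and 10.8% lower. The higher ones were FRMD6, a FERM domain protein, at 8.11 ± 0.310 FPKM in D3_Co and 3.51 ± 0.584 FPKM in D3_Control (log2 difference 1.02, SE 0.11, adjusted p = 0.00139), and SAV1, the scaffold of the MST kinases, at 25.9 ± 1.29 FPKM in D3_Co and 19.3 ± 1.03 FPKM in D3_Control (0.41, SE 0.06, adjusted p = 0.00420). LATS1 had a difference of 0.07 (adjusted p = 0.635). Among TEAD genes and VGLL cofactors, which compete with YAP for TEAD, 1 of 6 tested was higher and 1 lower. TEAD3 had 0.21 (adjusted p = 0.0377) and TEAD4 -0.23 (adjusted p = 0.0357), TEAD2 -0.09 (adjusted p = 0.286), VGLL2 0.35 (adjusted p = 0.297), VGLL3 0.25 (adjusted p = 0.107) and VGLL4 0.21 (adjusted p = 0.0527), while VGLL1 was listed at 0 in every library. The calls of TEAD3 and TEAD4 ended without any 1 of several libraries, D2_Co replicate 1, D2_Co replicate 3, D3_Co replicate 2, D3_Control replicate 2 and D3_Control replicate 3 among them. That of TEAD4 also ended with quantile normalization. TEAD4 and TEAD2 had the highest FPKM of the family, and TEAD1 to TEAD4 summed to between 209.7 and 214 FPKM in D3_Co and between 225 and 230.4 FPKM in D3_Control.

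TEAD3 and VGLL3 too had their highest levels on day 2. TEAD3 averaged 22.3 ± 1.33 FPKM in D1_Co, 30.8 ± 0.477 FPKM in D2_Co, 25.1 ± 0.0935 FPKM in D3_Co and 21.7 ± 0.617 FPKM in D3_Control, with D2_Co above D3_Control by 0.49 (SE 0.06, adjusted p = 0.00138). VGLL3 averaged 2.25 ± 0.221 FPKM in D2_Co and 0.860 ± 0.0698 FPKM in D3_Control (log2 difference 0.81, SE 0.10, adjusted p = 0.00155). At under 1 FPKM in D3_Control, VGLL3 passed the filter through co-culture libraries alone and had to differ, so its p-value is a description.

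Targets of SRF and its coactivators MRTF, which respond to actin as YAP does, and AP-1 genes, whose products bind beside TEAD, were counted as well. Of 12 SRF and MRTF targets, 5 were higher and 1 lower in D3_Co than in D3_Control, with a median of 0.14. ACTA2, smooth muscle actin, had 0.83 (adjusted p = 0.00232), CNN1, calponin, 0.74 (adjusted p = 0.00281) and TPM1, a tropomyosin, -0.21 (adjusted p = 0.0343), a call that ended with quantile normalization (adjusted p = 0.0652) and without any 1 library but D3_Control replicate 3, while without that library 3 of the 12 were higher. In D2_Co 11 of the 12 were higher than in D3_Control and 0 lower, beside 12.4% and 12.6% of all tested genes. With quantile normalization 9 were higher and 0 lower, and fewer were higher without any 1 of the D2_Co or D3_Control libraries. In D3_Co 9 were lower than in D2_Co and 1 higher, beside 7.21% and 8.72% of all tested genes, and 4, 4, 3 and 4 were lower without D2_Co replicate 1, D2_Co replicate 3, D3_Co replicate 1 and D3_Co replicate 2. Of 8 AP-1 and immediate early genes 7 were higher in D3_Co than in D3_Control and 0 lower, with a median of 0.87. With quantile normalization 6 were higher. The call of FOS ended there and without any 1 of the D2_Co, D3_Co or D3_Control libraries. JUNB averaged 11.2 ± 0.831 FPKM in D3_Co and 3.09 ± 0.435 FPKM in D3_Control, FOSL2 10.2 ± 0.486 FPKM in D3_Co and 3.21 ± 0.417 FPKM in D3_Control, and ATF3 15.4 ± 2.37 FPKM in D3_Co and 5.11 ± 0.151 FPKM in D3_Control. For D3_Co against D3_Control the background of every list is 13.5% of tested genes higher and 10.8% lower. LATS2 and PTPN14 stand on 2 of them. Of the genes named from these lists, SAV1, LATS1, PTPN14, TEAD2, VGLL4, ACTA2, TPM1 and JUNB overlap exons of a gene of the opposite strand. So do CCN6 and, among the markers named below, POU5F1, KRT7 and MYH7.

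**Figure D5:**
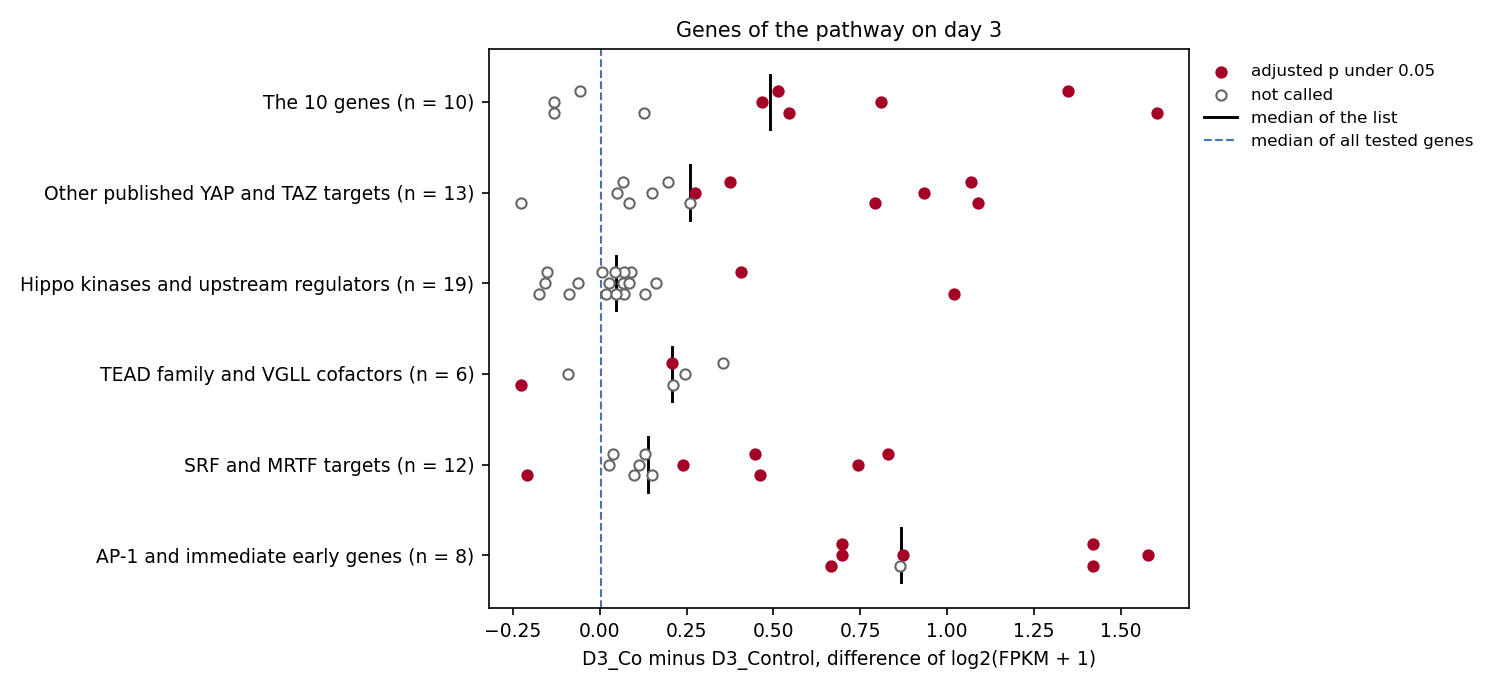
Differences of log2(FPKM + 1) between D3_Co and D3_Control for the tested genes of each list, 1 point per gene, with the list's median as a black bar and the median of all tested genes as a dashed line. The AP-1 list has the highest median, 0.87, and the Hippo list, at 0.05, lies near the dashed line.

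Markers of the labelled cell type and of others moved beside these genes. The 7 pluripotency markers measured summed to between 1760.3 and 1791 FPKM in D3_Co and between 2056 and 2115 FPKM in D3_Control, with POU5F1 at 795 ± 22.4 FPKM in D3_Co and 746 ± 33.6 FPKM in D3_Control. LIN28A, ZFP42 and DNMT3B were lower in D3_Co, and 0 were higher. The call of ZFP42 ended with quantile normalization and without any 1 of the D3_Co or D3_Control libraries. Fibroblast markers summed to between 444 and 459 FPKM in D3_Co and between 397 and 406 FPKM in D3_Control, and 4 of 7 tested were higher (COL1A1, COL1A2, COL5A1 and FBLN1) and 0 lower, with the call of FBLN1 ending without D3_Co replicate 1 or D3_Control replicate 2. DCN and LUM were listed at 0 in every library, and COL3A1 reached 0.0492 FPKM at most. Cardiomyocyte markers summed to between 3.73 and 3.97 FPKM in D3_Co and between 2.50 and 3.19 FPKM in D3_Control, with MYH7 listed at 0 in every library, and 1 of 1 tested, TNNI3, was higher. That call ended with quantile normalization and without D3_Co replicate 2 or D3_Control replicate 2. Endothelial markers summed to between 29.5 and 30.4 FPKM in D3_Co and between 23.4 and 26.2 FPKM in D3_Control, and 1 of 3 tested, KDR, was higher, a call that ended without D3_Co replicate 1. Amnion and trophoblast markers summed to between 3.36 and 4.05 FPKM in D3_Co and between 2.49 and 2.75 FPKM in D3_Control, with 0 of 2 tested called, and to between 5.42 and 7.37 FPKM in D2_Co, where both tested, GATA3 and KRT7, were higher than in D3_Control, a call that ended for KRT7 without D2_Co replicate 3, D3_Control replicate 2 or D3_Control replicate 3. Beside these counts, 13.5% of all tested genes were higher and 10.8% lower in D3_Co than in D3_Control. For D2_Co against D3_Control the shares were 12.4% and 12.6%. The part of any of these cell types in the levels of the 10 genes was not tested.

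The genes whose profiles were most like those of 3 targets were picked by the smallest root mean square difference of centred log2(FPKM + 1) values over the 8 libraries. For CCN1, whose own values span 0.98 on that scale, they were NRCAM (0.054), SHB (0.056) and CALD1 (0.058), of which SHB and CALD1 have other values allowed by the sorting in most libraries. For CCN2, spanning 0.78, they were RASL12 (0.059), DTNA (0.068) and PLCB4 (0.079). For ANKRD1, spanning 3.13, they were NPPB (0.14), PTHLH (0.22) and FGF1 (0.24). PTHLH, a parathyroid hormone-like peptide, averaged 2.39 FPKM in D1_Co, 5.30 FPKM in D2_Co, 1.14 FPKM in D3_Co and 0.0278 FPKM in D3_Control, and FGF1, a fibroblast growth factor, 5.17, 8.45, 3.42 and 0.520 FPKM in the same order. The sorting allows other values for PTHLH in 5 of the 8 libraries. All profiles come from the same 8 libraries, and the likeness describes them only.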

How the data were processed

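The polyA RNA of 8 H9 libraries was analysed from 1 table of FPKM that the authors deposited, with 45961 gene numbers. HISAT2 2.1.0, StringTie 1.3.3b and GRCh38.p12 are named in the submitters' processing notes, without settings. FPKM are not counts and the depth is unknown, so no interval on counts is given. FPKM summed to between 421825 and 440675 per library.

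Each library's lines had been sorted as text. Of the gene numbers 3394 begin a longer one, and the shifts reached other rows too. Of the 12449 tested rows, 7964 stood in place in all libraries, and 5878 had 1 allowed value in all libraries. For each library an exact search took the allowed order closest to D1_Co replicate 2, where a row counted for at most 4 on the log2 scale. All 7 libraries searched had an allowed order and sorted back to the deposited rows. Drawing to 1 library can understate differences on rows that moved.

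The log2(FPKM + 1) values of 12449 genes with a mean of 1 FPKM or more were tested with limma 3.58.1 (R 4.3.3), with 8 libraries in 1 model of 4 groups (eBayes with trend, 4 residual and 3.19 prior degrees of freedom), two-sided, with Benjamini-Hochberg adjustment. The search and the fit were tested on simulated data. Groups and replicate numbers came from the titles. The 10 genes, the lists, the markers and the rule for other named genes (up to 3 called genes each way per list by size, all TEAD, LATS and VGLL genes, 3 most alike profiles) were chosen with earlier results of these data known. F3, DOCK5, FJX1, IGFBP3 and the markers lie outside that rule and were named after their values were seen. TDGF1 is not analysed here. Gene positions are from GENCODE on GRCh38, promoters from RefSeq on GRCh38.p14.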

Additional observations from a re-analysis of the deposited data

How the results depend on the processing

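Alternatives were other pseudocounts, filters, scalings, a replicate block, the rows as deposited, only rows in place, only day 3 libraries, another target of the search (chosen after seeing the data) and each library left out. Of values called for the 10 genes, 279 of 289 kept their call and direction under settings other than leaving out a library, and 228 of 272 when 1 library was left out, none of these reversing. On the rows as deposited 19 of 34 kept it, 11 lost it and 4 reversed. Unless shown, the cause was not tested. Depth limits ANKRD1 and NPPB most, and cannot be stated since reads are unknown. With few libraries a lost call is no sign of no change. Calls over all tested genes also became fewer in each comparison when any 1 library was left out.

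With only rows in place 6 genes are left, and the genes called numbered 3 for D3_Co, 4 for D1_Co and 3 for D2_Co against D3_Control, 3 for D3_Co against D2_Co and 2 for D3_Co against D1_Co, since CCN1, CCN2, AXL and AMOTL2 are not tested there. ANKRD1 and NPPB, which had to differ, are among those called against D3_Control, and WWTR1 is the only other for D3_Co and D2_Co. Of all 7964 genes tested there, 1008 were higher and 869 lower for D3_Co, 761 and 992 for D1_Co and 938 and 1044 for D2_Co against D3_Control. The split was 685 and 533 for D3_Co against D2_Co and 1241 and 789 for D3_Co against D1_Co. On the rows as deposited the genes called among the 10 numbered 4 for D2_Co against D3_Control, 2 for D3_Co against D2_Co and 2 for D3_Co against D1_Co. Of all 13630 genes tested there, 1287 were higher and 1162 lower, 812 and 736, and 1354 and 1021, in the same order. With no filter 3 of the 10 were called for D3_Co against D2_Co, beside 879 higher and 667 lower of 23115 tested genes. Leaving out 1 library gave 5 to 6 for D3_Co, 6 to 7 for D1_Co and 7 to 7 for D2_Co against D3_Control, 0 to 2 for D2_Co against D1_Co, 3 to 5 for D3_Co against D2_Co and 3 to 5 for D3_Co against D1_Co.

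Replicate numbers are shared by some groups, and same-numbered libraries deviated from their group means with correlations between -0.0306 and 0.0435. No shared deviation was seen, but with 2 libraries per group this cannot tell whether same-numbered libraries share a culture or batch. With the replicate block the genes called numbered 6 for D3_Co, 7 for D1_Co and 7 for D2_Co against D3_Control, 2 for D2_Co against D1_Co, 4 for D3_Co against D2_Co and 4 for D3_Co against D1_Co, and AXL in D2_Co against D1_Co turned to 0.0078. Of all 12449 tested genes the block left 1051 higher and 768 lower for D3_Co, 1081 and 1184 for D1_Co and 1170 and 906 for D2_Co against D3_Control. It left 81 and 20 for D2_Co against D1_Co, 366 and 354 for D3_Co against D2_Co and 1191 and 743 for D3_Co against D1_Co.

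Differences that reversed on the rows as deposited were those of AXL in D3_Co against D3_Control (-0.27) and D2_Co against D3_Control (-0.14), and of AMOTL2 in D1_Co against D3_Control (-1.60), D2_Co against D1_Co (2.05) and D3_Co against D1_Co (1.55), since other genes' values stand there. Of these, AMOTL2 in D2_Co against D1_Co had not been called, and neither had any of the other differences that reversed. YAP1 in D1_Co against D3_Control and TEAD1 in D3_Co against D1_Co turned to 0.012 and -0.0053 with median-of-ratios scaling, and AXL and AMOTL2 in D2_Co against D1_Co to 0.0102 and 0.044 with quantile normalization. Leaving out 1 library gave -0.071 to 0.016 for YAP1 and -0.023 to 0.28 for CCN2 in D1_Co against D3_Control, -0.0299 to 0.057 for YAP1 in D2_Co against D3_Control, -0.15 to 0.0903 for AXL, -0.023 to 0.0022 for TEAD1, -0.0797 to 0.061 for WWTR1 and -0.061 to 0.0603 for AMOTL2 in D2_Co against D1_Co, and -0.12 to 0.0202 for WWTR1 in D3_Co against D1_Co.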
